A study of Mus musculus with 278 samples.

Results

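The 10 genes described here encode ligands of the epidermal growth factor (EGF) family and the ErbB receptor tyrosine kinases that bind them. They were taken by symbol from the 27179 Entrez gene IDs of the count files, and comprised 6 ligands (Areg, Hbegf, Egf, Btc, Tgfa and Nrg1) and 4 receptors (Egfr, Erbb2, Erbb3 and Erbb4). All 10 were among the 25173 genes kept for analysis, and 9 of them reached 1 CPM (reads of a gene, with the total reads of the cell scaled to 1000000) in 3 or more cells. Egf was the exception.

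Single epithelial cells of the FVB/NJ mouse mammary gland were sequenced with the Fluidigm C1, whose chip isolates each cell in its own chamber and turns its polyadenylated RNA into cDNA. Of the 278 cells, adult mice gave 112 sorted as basal (CD29 high, CD24+) and 43 sorted as luminal (CD29 low, CD24+). Mice in mid-pregnancy gave 123 that were sorted only as total epithelium. No group carried a transgene or a treatment, and the labels name no animal for a cell. Cells with 50000 or more reads were retained, namely 85 adult basal, 41 adult luminal and 96 pregnancy cells. Assigned reads per cell had medians of 291808, 686377 and 178923 in the 3 groups before this filter.

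Ligands of this family are made as membrane-bound precursors, and metalloproteases such as Adam17 release most of them from the cell surface. Egfr binds amphiregulin (Areg), transforming growth factor alpha (Tgfa), Egf and, together with Erbb4, betacellulin (Btc) and heparin-binding EGF-like growth factor (Hbegf), whereas the neuregulins (Nrg1 among them) bind Erbb3 and Erbb4. Erbb2 has no ligand of its own and pairs with the other receptors. In the mammary gland, amphiregulin is known as the oestrogen-induced ligand through which hormone-sensing luminal cells drive ductal growth, and neuregulin signalling through Erbb3 and Erbb4 is known from alveolar development in pregnancy.

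Pregnancy cells were put into classes by the share of the study's basal and luminal lineage genes (2 lists of 200 from bulk RNA) that had a read when each cell was thinned to 50000 reads. Areg, Btc and Nrg1 are in those lists, and the luminal list prints an entry Erbp3 that may be Erbb3. All members were left out of the lists, as were the pathway and milk genes. A cell was of the basal class only if it reached 20.3% of the basal list, which is the 10th percentile of the adult basal cells, and of the luminal class only if it reached 18.2% of the luminal list, the 10th percentile of the adult luminal cells. There were 35 cells of the basal class, 31 of the luminal class, 27 mixed cells that reached both thresholds and 3 that reached neither. A class is a range of a score and not a cell type. Of the 96 cells, 5 lay within 2 percentage points of the basal threshold and 3 within 2 points of the luminal one. The median share of luminal-list genes was 8.02% in the basal class against 2.14% in adult basal cells, and the median share of basal-list genes was 4.64% in the luminal class against 2.06% in adult luminal cells.

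The defining markers of the sorted lineages were higher in the cells of that label. Krt5, Krt14, Acta2, Trp63 and Myh11 summed to 16190 CPM in adult basal and 219 CPM in adult luminal cells, and Krt8, Krt18, Krt19, Epcam and Elf3 summed to 1047 and 7035 CPM. The pregnancy classes had 17457 and 539 CPM of the basal set and 585 and 2510 CPM of the luminal set. Markers of other cell types were not even over the groups. The 6 fibroblast markers (Pdgfra, Col1a1, Col1a2, Col3a1, Dcn and Lum) summed to 48.1 CPM in adult basal, 1747 CPM in adult luminal, 3319 CPM in pregnancy basal class and 419 CPM in pregnancy luminal class cells. In the same order, 5 endothelial markers summed to 0.642, 60.3, 79.0 and 80.5 CPM, 5 immune markers to 430.2, 4.18, 631 and 1.01 CPM, and 5 pericyte markers to 6.92, 29.4, 104 and 23.7 CPM. Reads of 3 or more markers of 1 such type were found in 1 of 85, 7 of 41, 12 of 35 and 4 of 31 cells. Milk genes took 35.3% of the reads of the pregnancy luminal class, 1.65% of the basal class and 1.25% of adult luminal cells. Each group counted as 1 sample because every library is 1 cell and no animal is named, so groups are set side by side with no test, and nothing here is checked by replicates. Intervals are at the 95% level and cover counting error only, since amplified reads without molecular identifiers are not independent molecules.

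Areg and Btc, which had their reads almost entirely in adult luminal cells, lie in 1 stretch of chromosome 5 with 2 further ligand genes. In the mm10 (GRCm38.p6) RefSeq annotation the order is Epgn (chr5:91027517-91035212), Ereg (chr5:91074617-91093649), Areg (chr5:91139599-91148432) and Btc (chr5:91357261-91402994), over 375 kb in all, with 209 kb between Areg and Btc. The 250 bases upstream of the RefSeq starts of these ligands are shown because both genes had the same lineage and the same difference between stages, and that of Egfr (chr11:16752203-16913907), the receptor of their products, because it had the opposite lineage. Capitals mark matches on either strand to 3 motifs that were searched. The first, TGACG, is the core of a cyclic AMP response element (CRE). The second motif was the Sp1 box, spelled GGGCGG in the search. The third was the TATA box, for which the letters TATAAA were used.
Areg, chr5:91139349-91139598, plus strand: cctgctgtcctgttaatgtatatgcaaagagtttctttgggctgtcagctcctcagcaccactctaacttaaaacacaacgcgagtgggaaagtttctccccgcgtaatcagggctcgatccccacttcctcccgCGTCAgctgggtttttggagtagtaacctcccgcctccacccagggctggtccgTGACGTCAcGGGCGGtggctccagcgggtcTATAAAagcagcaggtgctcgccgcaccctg
Btc, chr5:91402995-91403244, minus strand: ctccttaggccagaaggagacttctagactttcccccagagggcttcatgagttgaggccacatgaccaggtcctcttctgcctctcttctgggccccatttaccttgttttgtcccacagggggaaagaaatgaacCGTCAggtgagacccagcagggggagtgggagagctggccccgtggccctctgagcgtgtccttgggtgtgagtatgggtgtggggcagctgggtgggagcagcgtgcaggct
Egfr, chr11:16751953-16752202, plus strand: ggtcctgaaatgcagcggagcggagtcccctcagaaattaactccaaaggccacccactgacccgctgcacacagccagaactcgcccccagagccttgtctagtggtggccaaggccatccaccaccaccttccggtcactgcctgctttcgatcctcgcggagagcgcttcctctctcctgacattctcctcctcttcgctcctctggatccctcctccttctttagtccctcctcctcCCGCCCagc
The Areg window held 3 matches to the CRE core, 2 of which overlap in 1 palindrome that begins 61 bases before the start, besides 1 Sp1 box and 1 TATA box that begins 31 bases before the start. The Btc window held 1 match to the CRE core, 113 bases before the start, and neither of the other motifs. The Egfr window held 1 Sp1 box and no other motif. Of 32851 RefSeq windows of the same length, 17.8% held the CRE core, 32.7% the Sp1 box and 12.4% the TATA box. These matches describe letters in the windows, and no measurement of binding was made.

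Amphiregulin had the highest summed level of the ligands in adult luminal cells, also per kilobase of exon. Areg read counts over the lowest, median and highest of the 41 adult luminal cells were 0, 412 and 4862 CPM, and 35 of 41 cells (85.4%, interval 70.8 to 94.4%) had a read at 50000 reads. Among the 85 adult basal cells 1 had a read (1.18%, 0.0298 to 6.38%), with 0, 0 and 139 CPM. Of the luminal cells 6 were at 0 and the others ranged from 17.7 CPM up, while all but 2 basal cells were at 0 without thinning. Summed over cells, the level was 888 CPM (876 to 899) in adult luminal and 0.447 CPM (0.255 to 0.725) in adult basal cells, a log2 ratio of basal over luminal of -10.96 (-11.76 to -10.26). Basal cell 91 held 93.8% of the basal reads, and without it the basal level was 0.0280 CPM.

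Betacellulin, a ligand of Egfr and Erbb4, had the same lineage as Areg at a lower level. Btc had 0, 0 and 394 CPM in the lowest, median and highest adult luminal cell, with a read in 12 of 41 cells (29.3%, 16.1 to 45.5%). None of the 85 adult basal cells had a read of it, thinned or not, which allows a share of up to 3.53% by a floor of 3 counts and 4.25% by the Clopper-Pearson interval. Against a floor of 3 reads over the group, Btc was at least 505-fold lower in adult basal than in adult luminal cells, where it summed to 42.3 CPM (39.8 to 45.0). Areg and Btc had a read in the same cell in 11 of the 12 cells with Btc, where the product of the separate shares would give 10.2.

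Reads of the 2 ligands were not even over the luminal cells. The 41 adult luminal cells were divided by the number of 15 mature luminal markers (hormone-sensing cells, such as Esr1, Pgr, Prlr and Cited1) minus the number of 15 luminal progenitor markers (such as Kit, Elf5 and Cd14) with a read, and 19 cells leaned by 3 or more to the mature side, 10 to the progenitor side and 12 lay between. Areg was read in 19 of 19 mature-leaning cells, 12 of 12 between and 4 of 10 progenitor-leaning cells. Its summed levels were 1120 CPM, 960.3 CPM and 108 CPM in that order, cell 38 held 43.6% of the reads of the cells between and cell 9 held 94.3% of those of the progenitor-leaning cells. Btc was read in 9, 2 and 1 cells of the same divisions, at 60.0, 34.5 and 5.06 CPM. Cell 10 held 74.7% of the Btc reads of the cells between (9.56 CPM without it), and cell 28 all those of the progenitor-leaning cells. Esr1, the oestrogen receptor gene, was read in 27 adult luminal cells, 25 of which also had Areg, and Pgr, the progesterone receptor gene, in 24, 23 of which also had Areg. The product of the separate shares would give 23.0 and 20.5 such cells.

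**Figure D1:**
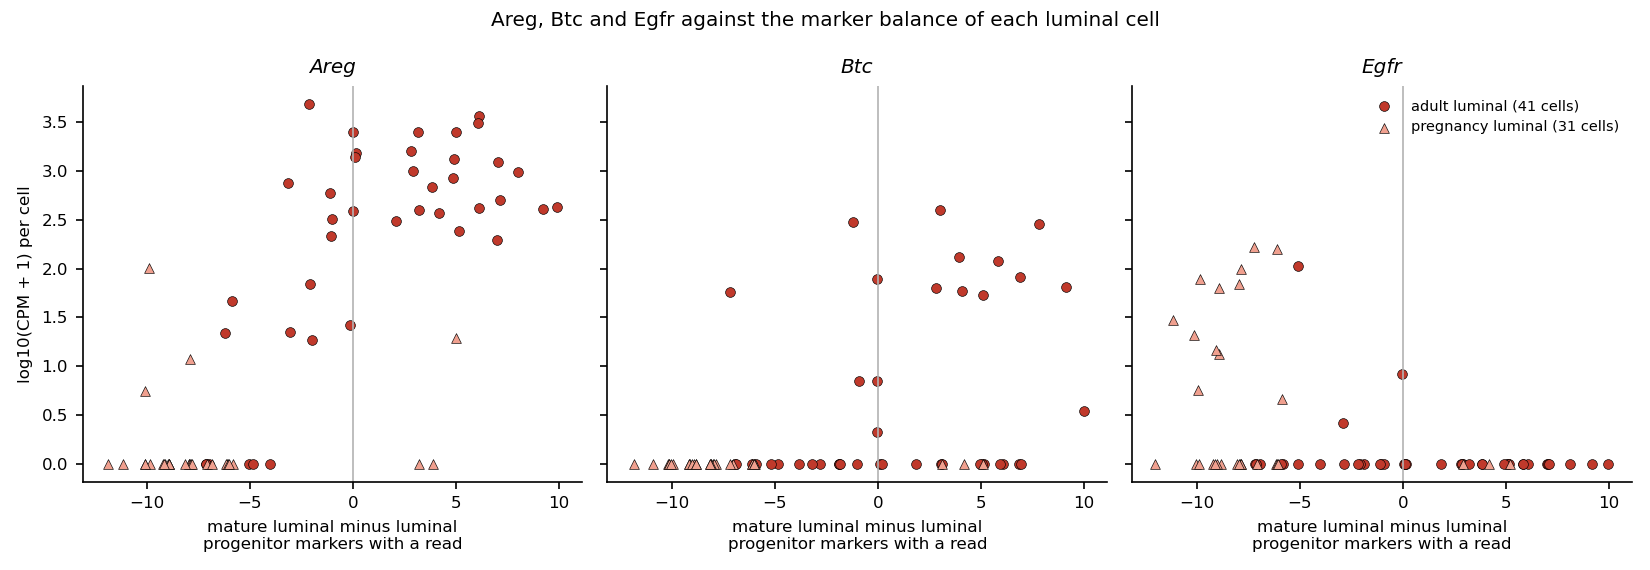
Areg, Btc and Egfr in each adult luminal (circles, 41 cells) and pregnancy luminal class cell (triangles, 31 cells), as log10(CPM + 1) on the vertical axis, against the number of mature luminal minus luminal progenitor markers with a read. Points are spread slightly sideways so that they can be told apart. Areg lay above 0 in every adult cell right of the vertical line and was at 0 in all but 4 pregnancy cells, 28 of which leaned to the progenitor side.

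Over all 222 cells, Areg had the closest pattern to another gene of any member. The highest Spearman correlations of its thinned reads were with Cited1 (0.81), a transcriptional cofactor of hormone-sensing cells, Ly6d (0.76) and Tlcd4 (0.74), among 7913 genes read in 10% or more of the cells. The 222 points share their sorts and differ in depth before thinning, so these values are a description only. Cited1 and Ly6d are in the study's luminal list.

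Transforming growth factor alpha, an Egfr ligand, was read in few cells, most of them basal. Tgfa had 0, 0 and 1244 CPM in the lowest, median and highest adult basal cell, with a read in 13 of 85 cells (15.3%, 8.40 to 24.7%), and 0, 0 and 23.6 CPM in adult luminal cells, with a read in 2 of 41 (4.88%, 0.596 to 16.5%). The shares overlap within their intervals, while the summed levels of 48.0 CPM (45.8 to 50.4) and 0.884 CPM (0.554 to 1.34) gave a log2 ratio of 5.76 (5.16 to 6.44). Basal cell 29 held 37.5% of the basal reads, and without it the basal level was 30.6 CPM. Luminal cell 21 held 86.4% of the luminal reads, and the ratio without the highest cell of each group was 7.94.

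Neuregulin 1, the ligand of Erbb3 and Erbb4 (chr8:31807452-32891609), had the highest summed level of the ligands in adult basal cells, also per kilobase of exon. Nrg1 had 0, 89.0 and 3919 CPM in the lowest, median and highest adult basal cell, with a read in 46 of 85 (54.1%, 43.0 to 65.0%). In adult luminal cells it had 0, 0 and 730 CPM and was read in 3 of 41 (7.32%, 1.54 to 19.9%). The basal cells thus spread from 0 to the highest value, and all but 3 luminal cells were at 0. Summed levels were 608 CPM (600 to 616) and 24.9 CPM (22.9 to 26.9), a log2 ratio of 4.61 (4.50 to 4.73). Luminal cell 35 held 84.8% of the luminal reads. That cell also held 99.2% of the 2862 reads of Acta2, a basal marker gene, among adult luminal cells, and the luminal level of Nrg1 without it was 3.89 CPM. The nearest patterns to Nrg1 over the 222 cells were those of Mylk (0.66), Perp (0.57) and Myh11 (0.57), and Mylk and Myh11 encode proteins of smooth muscle contraction.

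Heparin-binding EGF-like growth factor was the ligand that both lineages shared. Hbegf (chromosome 18) had 0, 23.4 and 4867 CPM in the lowest, median and highest adult basal cell and 0, 9.70 and 1599 CPM in adult luminal cells. It was read in 44 of 85 basal (51.8%, 40.7 to 62.7%) and 20 of 41 luminal cells (48.8%, 32.9 to 64.9%), so the cells of the 2 groups overlapped over most of their range. Summed levels were 329 CPM (323 to 335) and 135 CPM (130.3 to 139), a log2 ratio of 1.29 (1.23 to 1.34) that stayed under 4-fold. Among luminal cells, Hbegf was 88.1 CPM in mature-leaning and 270.0 CPM in progenitor-leaning cells, the reverse order of Areg. Cell 22 held 38.5% of the progenitor-leaning reads, and without it the level was 178 CPM.

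Egf itself was all but missing from the epithelium. A single read was counted in the 222 cells, in basal cell 79, and no cell had a read after thinning. Counts of 0 in the 41 adult luminal and 96 pregnancy cells allow shares of cells with a read of up to 7.32% and 3.13% by the floor of 3 counts, and 8.60% and 3.77% by the Clopper-Pearson interval.

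Compared per kilobase of exon, Areg in adult luminal cells had the highest level of the ligands among adult cells, 740.3 CPM per kb, and Nrg1 in the pregnancy basal class had 745 CPM per kb. Nrg1 in adult basal cells had 289 CPM per kb and Hbegf 138 CPM per kb in basal and 56.8 CPM per kb in luminal cells. Btc in luminal and Tgfa in basal cells were at 14.7 and 11.4 CPM per kb. The levels of the receptors on the same scale were 17.0 CPM per kb for Egfr in basal cells and 13.3, 7.46 and 0.896 CPM per kb for Erbb3, Erbb2 and Erbb4 in luminal cells.

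**Figure D2:**
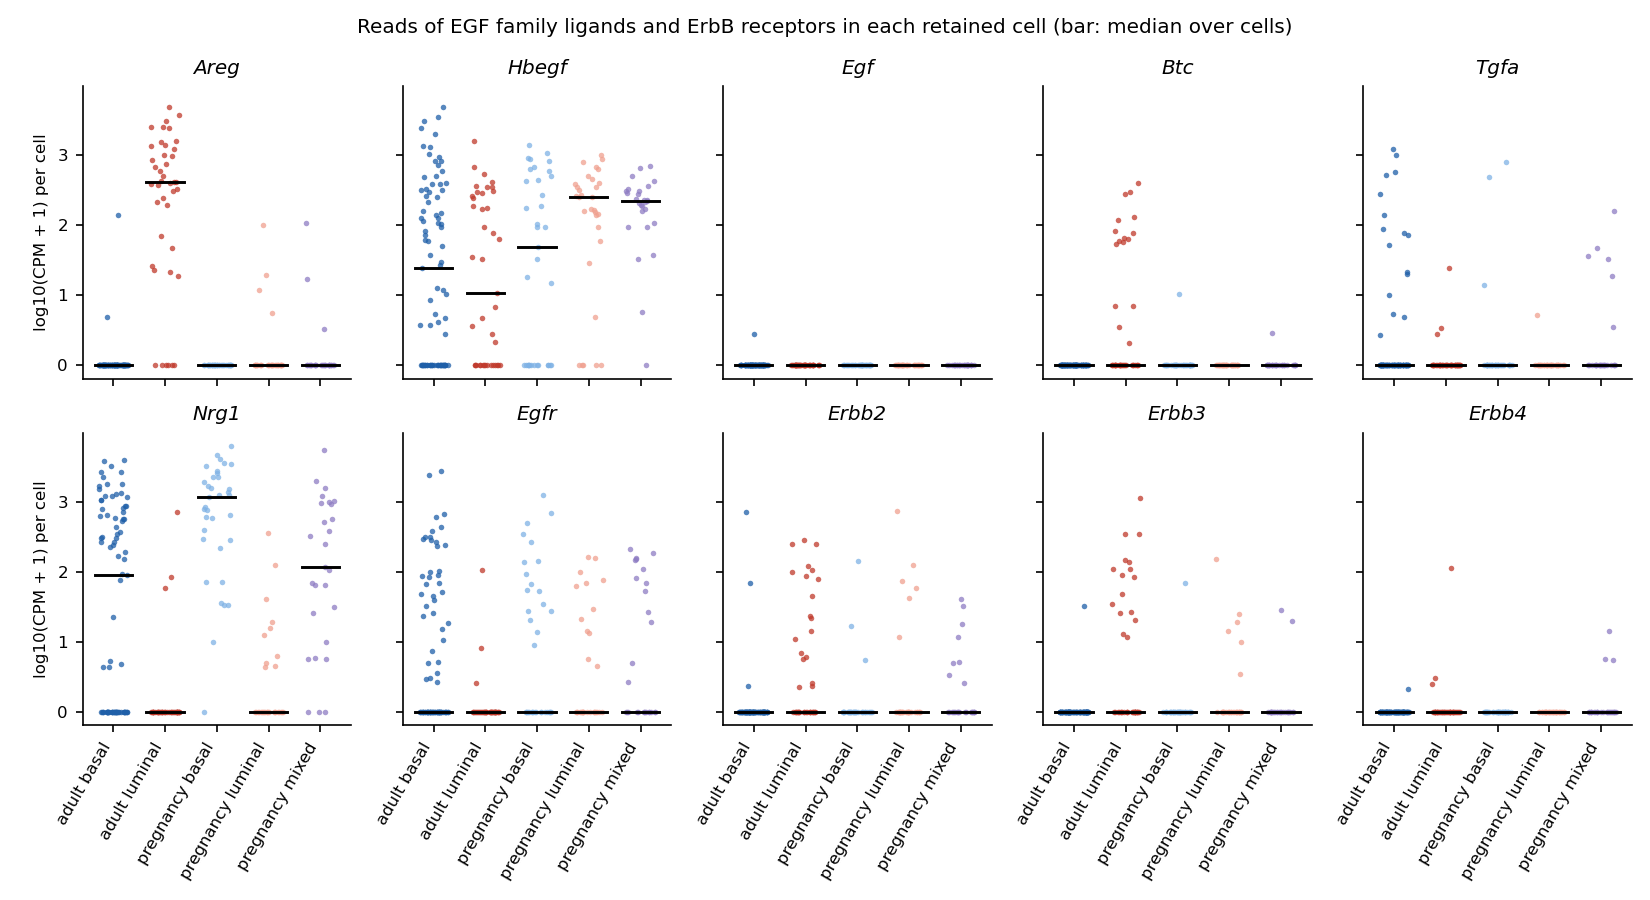
Reads of the 10 genes in each retained cell, as log10(CPM + 1), in adult basal (85 cells), adult luminal (41), pregnancy basal (35), luminal (31) and mixed (27) cells, with the 3 cells of neither class not drawn. Each point is a cell and each bar the median. Areg and Btc were read mainly in adult luminal cells, Nrg1 in adult and pregnancy basal and mixed cells, and Hbegf in every group.

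The receptors were divided between the lineages. Egfr, the receptor of Areg, Tgfa, Btc and Hbegf, was on the basal side. It had 0, 0 and 2795 CPM in the lowest, median and highest adult basal cell and was read in 26 of 85 cells (30.6%, 21.0 to 41.5%). In adult luminal cells it had 0, 0 and 105 CPM and was read in 1 of 41 (2.44%, 0.0617 to 12.9%). Most basal cells were therefore at 0 as well, but the shares did not overlap within their intervals. The summed levels were 110 CPM (106 to 113) and 1.45 CPM (1.01 to 2.00), a log2 ratio of 6.24 (5.77 to 6.76), and luminal cell 22 held 86.1% of the luminal reads.

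Erbb3, the neuregulin receptor with an impaired kinase, was on the luminal side. It had 0, 0 and 1156 CPM in adult luminal cells and was read in 14 of 41 (34.1%, 20.1 to 50.6%). Of the 85 adult basal cells only cell 93 had a read, at 31.8 CPM. The luminal sum came to 53.3 CPM (50.5 to 56.3) and the basal sum to 0.614 CPM (0.385 to 0.930), for a log2 ratio of basal over luminal of -6.44 (-7.12 to -5.84). By marker leaning Erbb3 was read in 9 of 19 mature-leaning, 1 of 12 between and 4 of 10 progenitor-leaning cells.

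Erbb2 was higher in luminal cells as well, with less separation. It had 0, 0 and 283 CPM in adult luminal cells and a read in 12 of 41 (29.3%, 16.1 to 45.5%), against 2 of 85 adult basal cells (2.35%, 0.286 to 8.24%). Sums of 37.3 CPM (34.9 to 39.7) for luminal and 8.71 CPM (7.77 to 9.73) for basal cells gave a log2 ratio of -2.10 (-2.29 to -1.91). Basal cell 11 held 93.9% of the basal reads, at 727 CPM, and without it the basal level was 0.536 CPM. Erbb4, the other neuregulin receptor with an active kinase, was read in 1 of 41 luminal cells after thinning. Luminal cell 11 held 97.9% of its 95 luminal reads, and the basal cells had 1 read, which gave a log2 ratio of -7.09 (-12.41 to -4.58).

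Altogether 3 of the 9 members with a ratio (Tgfa, Nrg1 and Egfr) were 4-fold or more higher in adult basal cells, where 14.8% of the 14351 genes with a ratio were. Another 5 (Areg, Btc, Erbb2, Erbb3 and Erbb4) were 4-fold or more lower, as were 22.8% of those genes. The median log2 ratio of all genes was -0.33, and that of the members was -2.10. Hbegf was between the limits, and Egf had no ratio. Without the cells that carried markers of other types, Areg was at -11.07, Nrg1 at 4.35, Egfr at 5.99 and Erbb3 at -6.62. Under TMM scaling (trimmed mean of M values) the ratio of Erbb2 was -1.80 and under equal weight of every cell -1.87, both under 4-fold, and the Erbb4 value rested on 1 luminal cell.

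Areg and Btc were thus luminal where their receptor Egfr was basal, and Nrg1 was basal where Erbb3 was luminal, whereas Tgfa was on the same side as Egfr and Hbegf was on both. Egfr was read in too few adult luminal cells (1 after thinning) to say whether Areg and Egfr occurred in the same cells. In adult basal cells, Hbegf and Egfr were both read in 15 of 85 cells, Nrg1 and Egfr in 16 and Tgfa and Egfr in 5, and the products of the separate shares would give 13.5, 14.1 and 3.98 cells. In adult luminal cells, Areg with Erbb3 and Areg with Erbb2 were each found in 11 of 41 cells (products of 12.0 and 10.2), and Btc with Erbb3 in 7 (4.10). Erbb2 and Erbb3, which form the most active receptor pair of the family, were read together in 3 adult luminal cells (4.10). At least 1 of the 6 ligands was read in 62 of 85 basal and 40 of 41 luminal cells, and at least 1 of the 4 receptors in 28 of 85 and 23 of 41.

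**Figure D3:**
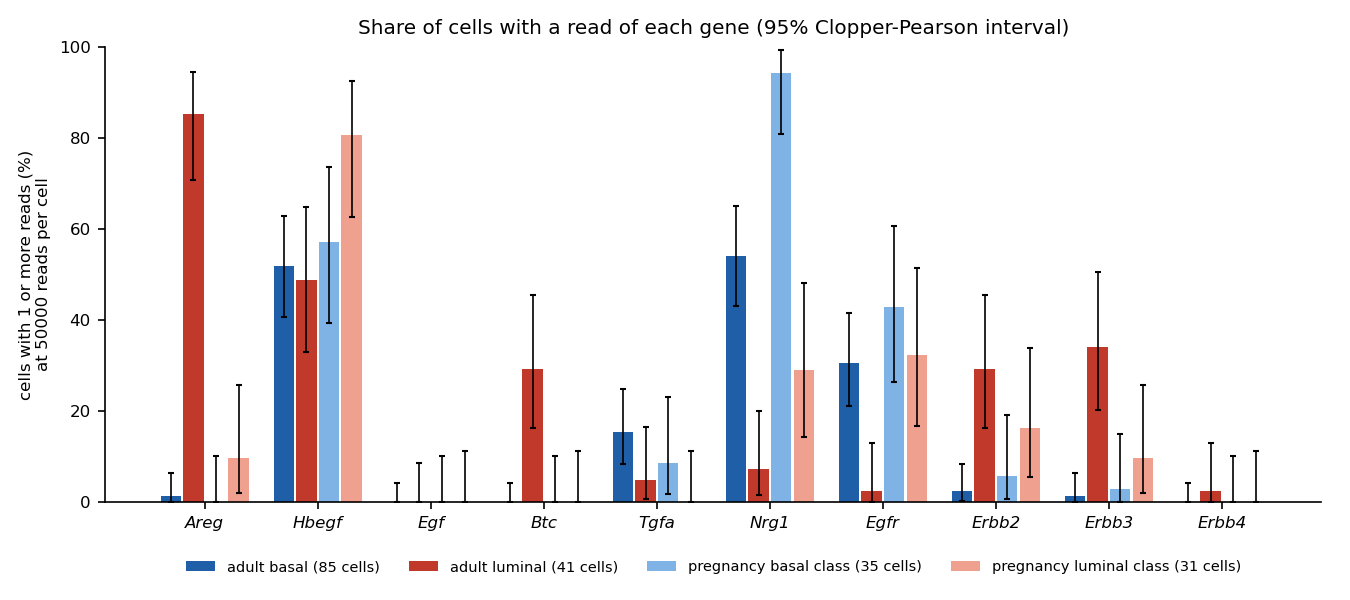
Percent of cells with 1 or more reads of each gene after thinning to 50000 reads, with 95% Clopper-Pearson intervals, in adult basal (85 cells), adult luminal (41), pregnancy basal class (35) and pregnancy luminal class cells (31). Areg, Btc, Erbb2 and Erbb3 were most often read in adult luminal cells, and Nrg1 in 94.3% of the pregnancy basal class.

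In the luminal lineage the ligands differed between the stages. Areg was read in 3 of 31 cells of the pregnancy luminal class (9.68%, 2.04 to 25.8%), against 35 of 41 adult luminal cells, and had 0, 0 and 99.9 CPM in the lowest, median and highest cell. The highest pregnancy luminal cell was thus lower than the median adult one. The summed level was 2.25 CPM (1.38 to 3.48) against 888 CPM, a log2 ratio of -8.62 (-9.33 to -7.996), and cell 44 held 75.0% of the 20 reads. All 96 pregnancy cells together had 33 reads of Areg, in 7 cells. Btc had no read in the pregnancy luminal class, at least 125-fold lower than in adult luminal cells, and 2 reads in the 96 cells.

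The makeup of the luminal cells differed between the stages too. Of the 31 pregnancy luminal class cells, 28 leaned to the progenitor markers, 3 to the mature markers and none lay between, and the 3 mature-leaning cells had 1 read of Areg and none of Btc. Esr1 and Pgr summed to 13.6 and 3.71 CPM in the pregnancy luminal class against 111 and 118 CPM in adult luminal cells, and Prlr to 406 against 5714 CPM. Among progenitor-leaning cells alone, Areg was 108 CPM in 10 adult cells, 94.3% of it in cell 9, and its log2 ratio of pregnancy over adult was -5.62. That comparison was chosen after the values were seen. Pregnancy cells were also not sorted as the adult cells were, so stage, sort and makeup cannot be told apart here.

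Hbegf was read in 25 of 31 cells of the pregnancy luminal class (80.6%, 62.5 to 92.5%), with 0, 251 and 998 CPM in the lowest, median and highest cell. Its summed level was 341 CPM (329 to 354), a log2 ratio over adult luminal cells of 1.34 (1.27 to 1.41). Between progenitor-leaning cells the levels were 350.2 CPM in pregnancy and 270.0 CPM in the adult (308 and 178 CPM without the top cell of each), a log2 ratio of 0.38. Nrg1 was read in 9 of 31 cells and summed to 37.1 CPM, 85.8% of which was in cell 101 (5.81 CPM without it). Tgfa had 1 read in the class, for a log2 ratio of -2.97 (-8.34 to -0.34).

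Egfr was the receptor with a higher level in the pregnancy luminal class. It was read in 10 of 31 cells (32.3%, 16.7 to 51.4%) against 1 of 41 adult luminal cells, with 0, 0 and 165 CPM in the lowest, median and highest cell. Summed levels were 22.4 CPM (19.4 to 25.7) against 1.45 CPM, a log2 ratio of 3.95 (3.44 to 4.51). No cell dominated the pregnancy value (cell 108 held 29.1%). All 10 cells with Egfr leaned to the progenitor markers, and among progenitor-leaning cells the levels were 23.0 CPM in 28 pregnancy and 7.04 CPM in 10 adult cells, a log2 ratio of 1.71 that is under 4-fold. Cell 22 held 96.9% of the reads of those adult cells, and without the top cell of each group the levels were 17.0 and 0.235 CPM. Erbb3 was read in 3 of 31 cells at 7.09 CPM (5.45 to 9.07), a log2 ratio of -2.91 (-3.30 to -2.55), and cell 61 held 66.7% of those reads. Erbb2 was read in 5 of 31 cells at 12.9 CPM (10.7 to 15.5), a log2 ratio of -1.53 (-1.82 to -1.25), and Erbb4 had no read.

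Of the 9 members with a ratio in this comparison, 1 (Egfr) was 4-fold or more higher in the pregnancy luminal class, against 8.54% of 13668 genes. Another 5 (Areg, Btc, Tgfa, Erbb3 and Erbb4) were 4-fold or more lower, against 25.5%. Tgfa and Erbb4 had no ratio without the top cell of each group. Adult luminal cell 21 held 86.4% of the adult Tgfa reads and cell 11 held 97.9% of those of Erbb4. The median log2 ratio of all genes was -0.96, which became -0.10 under TMM scaling and -0.35 with the milk genes out of the totals. Without the cells that carried markers of other types, Areg was at -8.82, Egfr at 3.53, Erbb3 at -4.52 and Tgfa at -1.50, and 4 members were past 4-fold. Relative to the median of all genes, Areg was at -7.67, Egfr at 4.91, Hbegf at 2.30, Erbb3 at -1.96 and Erbb2 at -0.57. TMM scaling shifts every ratio by the same amount, so it could not change these relative values. The TMM-scaled ratios of these 5 members were -7.77, 4.80, 2.19, -2.06 and -0.68 in that order. The sign for Nrg1 changed with the class threshold (0.58, and -3.71 with the 5th percentile).

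In the basal lineage Nrg1 had the largest difference of the members between the stages in CPM per kilobase of exon (745 against 289), at a ratio under 4-fold. It was read in 33 of 35 cells of the pregnancy basal class (94.3%, 80.8 to 99.3%), against 46 of 85 adult basal cells. The intervals of these shares did not overlap. After thinning, however, the median number of genes with a read was 3031 in the pregnancy basal class and 2284 in adult basal cells. Whether the share of Nrg1 differed by more than that of other genes was not tested. The lowest, median and highest cell of the pregnancy basal class had 0, 1196 and 6286 CPM of Nrg1. The median was thus above that of the adult cells, although the ranges overlapped. Summed levels were 1567 CPM (1533 to 1602) against 608 CPM, a log2 ratio of 1.37 (1.33 to 1.403). The ratio was 0.76 with the minimum depths of the study, under which 53 cells formed the basal class. In the cells with title numbers up to 55 the level was 1612 CPM and in those with numbers above 55 it was 1505 CPM, a division that was drawn in an earlier look at these data and that no label names.

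Markers of other cells were higher in the pregnancy basal class. The fibroblast markers all had reads in it, from 0 to 39720.4 CPM in single cells, and Lum was at 0 in adult basal cells. The ratio of Nrg1 without such cells was 1.29. The part of these cells in the level of Nrg1 was not tested beyond that ratio.

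Hbegf, Egfr and Tgfa were close to their adult levels in the basal class. Hbegf was read in 20 of 35 cells at 286 CPM (271 to 301), a log2 ratio of -0.20 (-0.28 to -0.12). Egfr was read in 15 of 35 cells (42.9%, 26.3 to 60.6%) at 110 CPM (101 to 119), a log2 ratio of 0.00 (-0.13 to 0.13), and cell 113 held 37.5% of the reads. Tgfa was read in 3 cells at 44.8 CPM, a log2 ratio of -0.10 (-0.31 to 0.10), and cell 6 held 59.7% of the reads. Within the class these values were uneven by title number. Hbegf was 399 CPM up to 55 and 132 CPM above it, Egfr 68.7 and 166 CPM, and Tgfa 77.6 CPM in 19 cells and 0 reads in 16.

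Just 1 of the 6 members with a ratio between these stages was 4-fold or more higher in the pregnancy basal class, Erbb3 (log2 2.54, 1.55 to 3.50), against 18.1% of 13531 genes, and all of its 18 reads were in cell 13. None was 4-fold or more lower, against 11.2%. The median log2 ratio of all genes was 0.02 and that of the members -0.05. Erbb2 was at -1.37 (-2.17 to -0.67) with 76.5% of its 17 reads in cell 84, and at 0.59 without the top cell of each group. Areg had no read in the class, and Btc had 1.

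**Figure D4:**
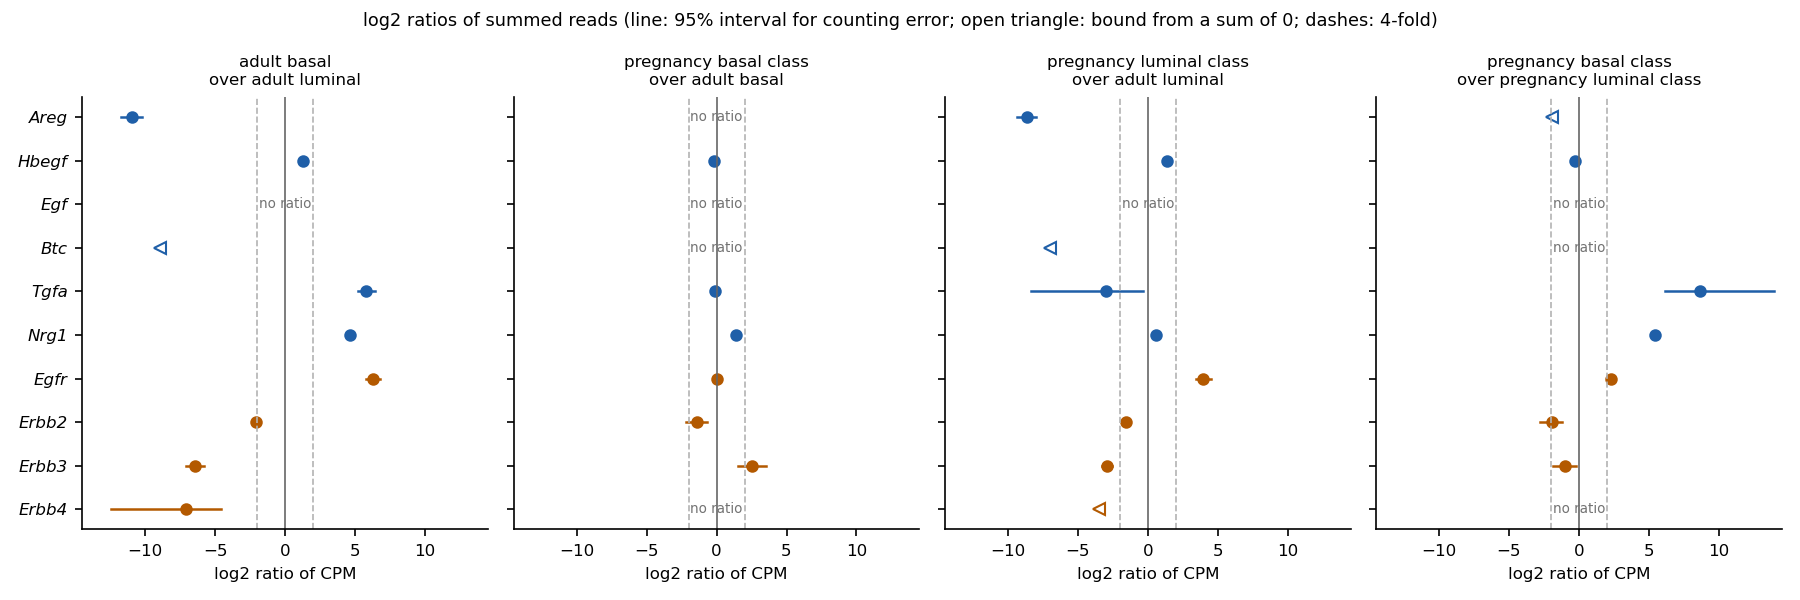
log2 ratios of the summed reads of the 10 genes in the 4 comparisons, with ligands in blue and receptors in orange. Lines are 95% intervals for counting error, open triangles are bounds computed from a sum of 0, and dashed lines mark 4-fold. The adult lineage ratios of Areg and Egfr were -10.96 and 6.24, and the luminal stage ratios -8.62 and 3.95.

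Within pregnancy, where both classes came from cells sorted only as total epithelium, Nrg1 had the widest separation of shares among the members, with 33 of 35 basal class and 9 of 31 luminal class cells. The summed levels of 1567 and 37.1 CPM gave a log2 ratio of 5.40 (5.24 to 5.56). Mixed cells lay between, with a read in 22 of 27 cells and 547 CPM (532 to 563). Tgfa was higher in the basal class (log2 8.64, 6.14 to 13.95), against 1 read in the luminal class. After thinning it was read in 3 of 35 basal class cells (1.80 to 23.1%) and 0 of 31 luminal class cells (0 to 11.2%). These shares overlapped within their intervals. Cell 6 held 59.7% of the basal class reads of Tgfa, and the 16 basal class cells with numbers above 55 had 0. Egfr was higher as well (log2 2.29, 2.06 to 2.53), but the shares of 42.9% and 32.3% overlapped within their intervals. Its ratio was 0.58 in cells with numbers up to 55 and 3.47 in those above, and 1.61 under TMM scaling.

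These 3 were the members 4-fold or more higher in the basal class, of 7 with a ratio, against 26.7% of 13424 genes. In CPM without other scaling, none of the 7 was 4-fold or more lower, against 11.1%. Erbb2 had a log2 ratio of -1.94 (-2.77 to -1.20), Erbb3 -0.99 (-1.84 to -0.22) and Hbegf -0.26 (-0.35 to -0.17), and Areg was at least 3.79-fold lower. The median log2 ratio of all genes was 0.72, 0.03 under TMM scaling and 0.09 with the milk genes out of the totals. Under TMM scaling Erbb2 was at -2.63 and Areg at most at -2.61, both 4-fold or more lower. With the milk genes out they were at -2.55 and at most -2.52. The shares of all genes past 4-fold were not repeated under these scalings. Cell 70 held 34.8% of the Erbb2 reads of the luminal class and cell 44 held 75.0% of those of Areg. Nrg1 with Egfr was read in 13 of 35 basal class cells and Hbegf with Egfr in 9 of 31 luminal class cells, next to products of 14.1 and 8.06 cells.

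Cycling cells, with reads of 3 or more of 10 cell cycle markers, were 27 of the 96 pregnancy cells. Nrg1 was 952 CPM in them and 389 CPM in the other 69 cells, Hbegf 261 and 288 CPM, and Egfr 29.5 and 53.4 CPM. Cell 6 held 25.6% of the Nrg1 reads of the cycling cells. Of the 27 cycling cells 24 had title numbers up to 55.

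The other ligands of the family were rare. Ereg (epiregulin) and Epgn (epigen), the neighbours of Areg, had lower summed levels in adult basal than in adult luminal cells. The log2 ratio was -3.65 (-4.32 to -3.03) for Ereg, and Epgn was at least 45.6-fold lower. Ereg was 8.39 CPM in adult luminal cells, all in cell 35, the cell that also held most of their Acta2 and Nrg1 reads. Without the top cell of each group Ereg had no ratio, so its adult lineage is not shown. It was 45.2 CPM in the pregnancy basal class, where 4 of 35 cells had a read and cell 9 held 61.4%. Epgn was 3.82 CPM in adult luminal cells (5 of 41 cells with a read) and 162 CPM in the pregnancy luminal class, of which cell 107 held 96.9%. Nrg2 and Nrg4 stayed at 4.06 CPM or less in the 4 groups, and Nrg3 did not reach the filter.

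Beyond the members, 41 genes of the pathway were listed, namely 5 other ligands, 5 genes of ligand shedding, 7 adaptors, 13 negative regulators and 11 targets. Between the adult sorts 6 of the 40 with a ratio were 4-fold or more higher in basal and 8 lower, against 14.8% and 22.8% of all genes, and their median log2 ratio was 0.09. The highest among those with 20 CPM or more were Egr2 (4.43) and Myc (2.07), which are induced transcription factors, and Spred2 (4.43), an inhibitor of the Ras pathway. The lowest were Adam10 (-4.27) and Adam17 (-1.87), the metalloproteases that release the ligands, and Gab1 (-1.56), an adaptor. Adam10 was 152 CPM in luminal and 7.90 CPM in basal cells.

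Between the basal cells of both stages 6 of 37 pathway genes were 4-fold or more higher in pregnancy and 1 lower, against 18.1% and 11.2% of all genes, with a median of 0.38. Ereg (6.07), Adam17 (2.40) and Adam10 (2.34) were the highest with 20 CPM or more, and Rhbdf2 (-1.66), Spred2 (-1.08) and Cbl (-0.48), a ubiquitin ligase of activated receptors, the lowest. Adam17 was 114 CPM against 21.7 CPM, so both proteases had higher levels in the pregnancy basal class. Between the luminal cells 3 of 38 were higher and 7 lower, against 8.54% and 25.5% of all genes, with a median of -0.54 beside -0.96 for all genes. Epgn (5.41, and 1.52 without the top cell of each group), Lrig1 (2.26), a negative regulator of ErbB receptors, and Egr2 (1.17) were the highest, and Adam10 (-2.62), Rhbdf1 (-2.08) and Ccnd1 (-1.56), the cyclin D1 gene, the lowest.

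Between the pregnancy classes, of 38 pathway genes 14 were 4-fold or more higher in the basal class and 4 lower, against 26.7% and 11.1% of all genes. Their median was 1.34 beside 0.72 for all genes. Among the higher ones were 7 of the 13 negative regulators, whose median was 2.12. The pathway counts were not repeated under TMM scaling, where the median of all genes was 0.03, so fewer may pass 4-fold there. The highest with 20 CPM or more were Ereg (at least 7.06), Egr2 (3.20) and Dusp6 (2.63), an ERK phosphatase, and the lowest were Epgn (-3.49), Rhbdf2 (-2.29) and Sos1 (-0.48). Dusp6 was 509 CPM in the basal and 82.0 CPM in the luminal class. Epgn came to 0.20 without the top cell of each group.

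**Figure D5:**
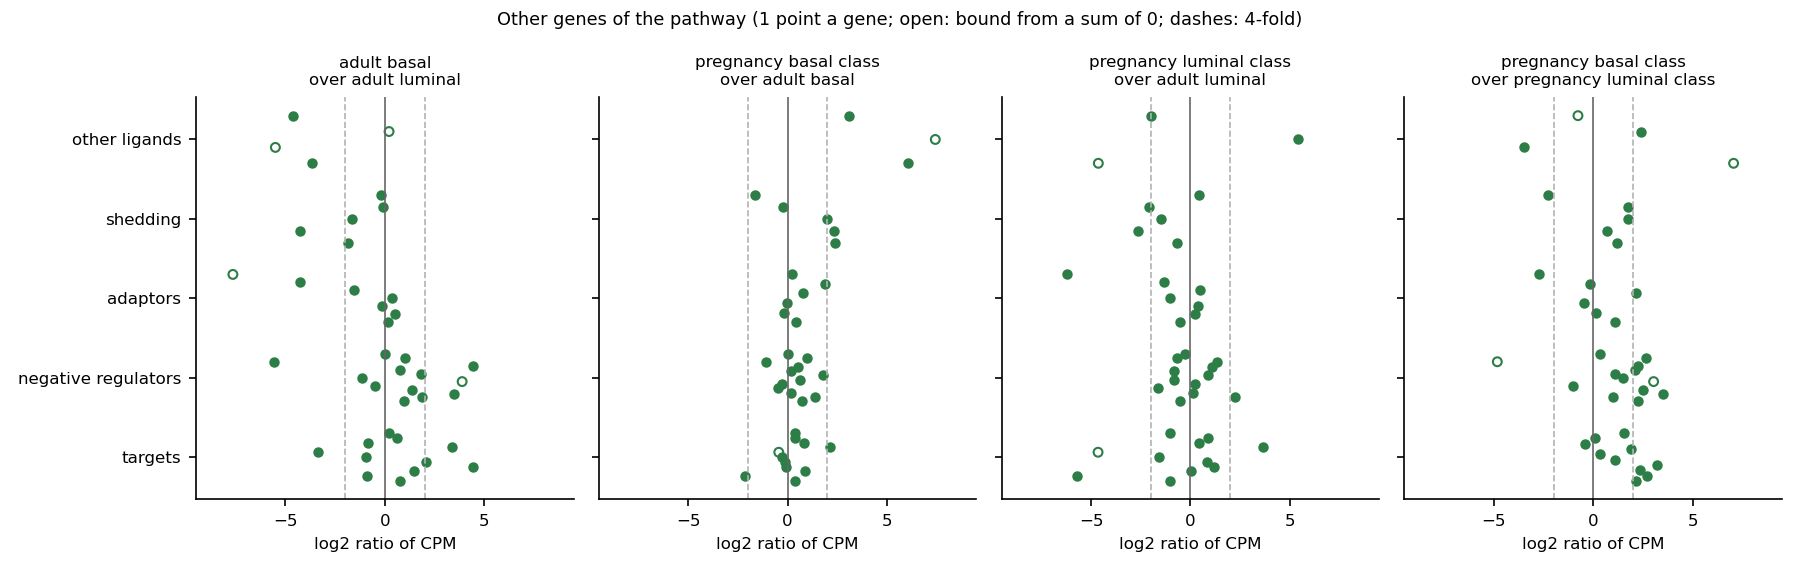
log2 ratios of the other pathway genes in the 4 comparisons, 1 point a gene, by role, with open points for bounds from a sum of 0 and dashed lines at 4-fold. Most adaptors lie within 4-fold. In the comparison of the pregnancy classes 7 of 13 negative regulators lie right of the upper line, where the median of all genes was 0.72.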

How the data were processed

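Single mammary epithelial cells were captured on the Fluidigm C1, viewed under a microscope, and sequenced as Nextera XT libraries. Per the labels, the authors aligned the reads to mm10 with Subread 1.4.6 and assigned them to RefSeq genes with featureCounts, and they deposited 1 table of raw counts per gene and exonic length for each cell. The depth of the retained cells ran from 54091 to 790786 reads in pregnancy, with medians of 379370 in adult basal and 639606 in adult luminal cells, after genes without a symbol (1904 IDs, 1.20% of reads), 15 mitochondrial genes (9.54%) and 87 ribosomal protein genes (1.50%) were left out. A separate table of the whole series was not used.

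Reads were summed over the cells of a group and given as CPM with exact Poisson intervals. Shares of cells were taken at 50000 reads per cell with Clopper-Pearson intervals. The median number of genes with a read at that depth was 2284 in adult basal and 3434 in adult luminal cells. It was 3031 in the pregnancy basal class and 3077 in the pregnancy luminal class. The shares were not adjusted for these numbers. Ratios have exact conditional intervals at the 95% level, and a sum of 0 entered at a floor of 3 reads over the group. A difference counted from 4-fold on, over the 15342 genes with 1 CPM or more in 3 or more cells. Levels were compared between genes only per kilobase of exon. Of the lineage lists, 194 basal and 187 luminal genes were used for the classes. Pathway genes were named as the 3 highest and 3 lowest ratios among those with 20 CPM or more in a group, and pattern likeness was sought for members read in 20 or more cells. No doublet caller was run, the highest correlation between cells was 0.613 and no 2 cells were identical.

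The ratios were computed on simulated counts with 200 of 15342 genes changed, all of them well-read genes with large changes. The direction was right for 100% in each of the 4 comparisons. The intervals held the true value for 95.8% of the unchanged genes with a ratio between the adult sorts. The counts were drawn from the Poisson model that the intervals assume. These values therefore check the calculation only, and not the spread of reads between cells. The alternatives were other depth minimums, scalings, class percentiles, fold limits and left-out cells. The members and lists were chosen with earlier results of these data known. RefSeq promoter windows were found for 7 of the 10 genes. Python 3.11.15, numpy 2.4.6, scipy 1.17.1, pandas 2.3.3 and matplotlib 3.10.9 were used. The levels of 1 list of markers of another cell type are not reported here.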

Additional observations from a re-analysis of the deposited data

Results flagged for a closer look

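Reads of the members were also counted in cells with fewer than 50000 reads, which entered no comparison, above the 3 reads that a count of 0 allows. In the 27 such adult basal cells there were 553 reads of Nrg1, 194 of Hbegf and 27 of Erbb2. The 2 such adult luminal cells had 87 reads of Areg, 14 of Hbegf and 4 of Tgfa. The 27 such pregnancy cells had 250 reads of Nrg1, 109 of Hbegf, 32 of Egfr and 5 of Btc.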

How the results depend on the processing

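For the pregnancy basal class over adult basal cells, 1 member was past 4-fold. That count was 2 with 100000 reads in every group and in title numbers up to 55, 3 at a 2-fold limit, and 0 with the minimums of the study, without cells of other types, without the top cell of the gene and with the 25th percentile for classes. For the pregnancy basal over the pregnancy luminal class, 3 members were past 4-fold, and 5 with the minimums of the study, with each cell at the same weight, with all genes in the totals and at a 2-fold limit. Counts ranged from 7 to 9 around 8 between the adult sorts and from 4 to 8 around 6 between the luminal stages. Of 60 such counts over all settings 49 stayed within 1.5 times the main one and 11 moved. Of 417 ratios of single members 190 moved beyond their counting interval and none changed sign as a value past 4-fold, and of 80 shares 15 moved. Class sizes moved with the threshold, to 53 basal, 21 luminal and 9 mixed cells with the minimums of the study. Among progenitor-leaning luminal cells, a setting added after the data were seen, 5 members were past 4-fold. There the pregnancy over adult ratio of Nrg1 was at least 5.85 on the log2 scale, against 0.58 in the main comparison. That bound set 0 reads in 10 adult cells against 329 reads in 28 pregnancy cells, and pregnancy cell 101 held 86.0% of these. Without cell 101 the pregnancy level was 5.85 CPM instead of 38.0 CPM. The causes of these differences were not tested. At 50000 reads a gene of low level is missed in many cells, so a count of 0 cells was read only against its limit. No paired analysis was possible because no test was run and the title numbers name cells, not animals.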
